A study of Mus musculus with 15 samples.

Results

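The 10 genes described here serve MHC class I antigen presentation and were followed through RNA profiles of T cells taken from mouse tumours. They are B2m, H2-K1, H2-D1, H2-Q6, H2-Q7, H2-T23, Tap1, Tap2, Tapbp and Nlrc5, a named set of 10 out of 21788 genes listed in any of 15 libraries. They were named by function, with earlier results of these data known. All 10 were listed in every library.

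MHC class I molecules display short peptides from inside a cell to CD8+ T cells and to NK cells. A heavy chain, such as the classical H2-K1 and H2-D1 or the non-classical H2-Q6, H2-Q7 and H2-T23, pairs with the light chain beta-2 microglobulin made from B2m. Tap1 and Tap2 form the transporter that carries peptides into the endoplasmic reticulum, and Tapbp encodes tapasin, which holds the empty heavy chain beside the transporter. Nlrc5 is a transactivator of class I genes that acts through a multi-protein complex on their promoters, and interferons raise the whole pathway in most cells, T cells included.

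The mice carried E.G7 tumours, grown from 1000000 cells of an ovalbumin-expressing (OVA) T cell lymphoma line placed under the skin at 6 to 8 weeks of age, and were 9 to 11 weeks old in the labels. Cells were sorted on day 21. A first design compared bulk OVA-specific CD8+ T cells of wild-type mice and of mice labelled B7S1 knockout (KO), with 6 mice and 1 library per group. B7S1 is an inhibitory B7-family ligand encoded by Vtcn1, and B7S1R is its receptor.

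A second design split PD-1+ CD8+ tumour T cells into 3 populations. B7S1R_SP cells were Tim-3- and B7S1R+, TIM-3_SP cells were Tim-3+ and B7S1R-, and DN cells were negative for both. For each population there were 2 wild-type libraries, with the numbers 1 and 2 in their titles, and 1 KO library, so the 9 libraries make the sets WT 1, WT 2 and KO. The last design had 1 library each titled Control, anti_B7S1, anti_PD1 and combo, from tumour-infiltrating lymphocytes of wild-type mice. No antibody dose, schedule or sort gate is given for these, and combo is read here as both antibodies together, which the labels do not spell out. The strain is given as C57BL/6 for the bulk, antibody and 2 of the sorted libraries. In the other 7 sorted libraries the strain field runs on from C57BL/7 to C57BL/13 and the genotype field of the KO set from B7S1 KO to B7S3 KO, so groups were read from the titles. Whether the numbered libraries came from separate mice is not stated, so the p-values measure only the spread between these libraries.

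The promoters of the heavy-chain genes are shown first because they set out what these genes share in sequence. RefSeq promoters (GRCm38.p6) were found for 8 of the 10 members. In the 250 bases before the start, H2-K1, H2-D1, H2-Q6 and H2-Q7 each held GGGANTCCC, a kappa B-type motif, which 0.636% of all 32851 promoters held in the same window on either strand. Each also held TTTCNNTTC, a motif resembling the interferon-stimulated response element, which was searched after the sequences had been read. That motif was in 6.31% of all promoters. The lines below give 120 bases of these 4 promoters and of B2m and H2-T23, 5′ to 3′ on the gene's strand, with every motif match in capitals.
H2-K1: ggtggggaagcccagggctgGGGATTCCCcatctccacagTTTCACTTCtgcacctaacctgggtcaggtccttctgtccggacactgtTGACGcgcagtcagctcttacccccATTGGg
H2-D1: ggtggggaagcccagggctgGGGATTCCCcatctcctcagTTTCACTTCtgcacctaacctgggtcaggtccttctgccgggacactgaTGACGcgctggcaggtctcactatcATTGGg
H2-Q6: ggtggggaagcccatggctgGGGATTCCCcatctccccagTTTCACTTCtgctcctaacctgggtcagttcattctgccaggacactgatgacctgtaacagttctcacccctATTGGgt
H2-Q7: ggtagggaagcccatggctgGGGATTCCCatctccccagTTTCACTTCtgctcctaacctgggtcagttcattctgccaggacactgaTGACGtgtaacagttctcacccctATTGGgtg
B2m: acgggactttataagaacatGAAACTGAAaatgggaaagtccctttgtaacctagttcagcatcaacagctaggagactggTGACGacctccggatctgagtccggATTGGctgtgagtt
H2-T23: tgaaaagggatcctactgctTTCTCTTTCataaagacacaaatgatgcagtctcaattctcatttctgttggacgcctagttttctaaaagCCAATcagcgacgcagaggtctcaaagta

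These windows lie at chr17:34000358-34000477 (minus strand) for H2-K1, chr17:35262904-35263023 (plus) for H2-D1, chr17:35424658-35424777 (plus) for H2-Q6, chr17:35439003-35439122 (plus) for H2-Q7, chr2:122147528-122147647 (plus) for B2m and chr17:36032725-36032844 (minus) for H2-T23. In a global alignment, the windows of H2-Q6 and H2-Q7 were 96.7% identical and those of H2-K1 and H2-D1 90.8%. H2-T23 was 42.9% to 49.6% identical to the other heavy chains, and B2m 45.3% to 50.4% identical to the 5 heavy chains. B2m and H2-T23 held TTCNNTTTC, a core of the response element, found in 7.13% of all promoters, and no kappa B match. Their windows were placed by this motif, and those of H2-K1, H2-D1, H2-Q6 and H2-Q7 by the kappa B match. Identities between windows placed by different motifs therefore depend partly on placement, and the identity of unrelated windows was not computed. CCAAT, read as ATTGG on the other strand, was in all 8 promoters and in 33.8% of all promoters. TGACG was in 5 of 8 members and in 17.8% of all promoters. TTCNNNGAA, the STAT-type GAS motif, was in 0 of 8 and in 7.02% of all promoters. TTCNNTTTC and TTTCNNTTC were counted as separate motifs, and no member promoter held both. A match is a description of the letters and not of binding.

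Tap1 is shown for its neighbour. Its start lies 225 bases from that of Psmb9, an inducible subunit of the immunoproteasome, which is read in the opposite direction. The stretch between the starts, chr17:34187331-34187555 on the plus strand, is given here with CCAAT and TGACG in capitals.
Tap1: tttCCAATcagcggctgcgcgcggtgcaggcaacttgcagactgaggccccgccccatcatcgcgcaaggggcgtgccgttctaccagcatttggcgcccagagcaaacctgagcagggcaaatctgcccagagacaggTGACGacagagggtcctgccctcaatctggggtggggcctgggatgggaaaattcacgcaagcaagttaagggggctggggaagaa

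In GENCODE M21 on GRCm38, B2m lies at chr2:122147686-122153083 and Nlrc5 at chr8:94434356-94527272. The other members lie on chromosome 17 in the MHC, from Tapbp at 33915899 to H2-T23 at 36032855. The heavy chains resemble each other closely enough for reads to be shared. Of all 50-base words in the longest coding transcript, 34.9% in H2-Q7, 32.0% in H2-Q6, 28.8% in H2-T23, 14.3% in H2-D1 and 8.79% in H2-K1 also occurred in transcripts of other genes. H2-Q7 shared 19.3% of its words with H2-Q6. How the authors' counting divided such reads is not given in the sources used here, so H2-Q6, H2-Q7 and their relatives are uncertain as single genes. B2m and Nlrc5 shared 0 words, and Tap1, Tap2 and Tapbp shared at most 2.0%.

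The files hold RPKM (bulk pair) or FPKM (all others), which are reads or fragments scaled to transcript length and library total, and the depth behind them is unknown. They fall into 4 tables listing different genes, with WT 1 alone in one and WT 2 and KO together in another, so members were compared within a table and levels set across tables are descriptions only. Vtcn1 was listed at 0.0687 RPKM in the bulk wild-type library and 9.46 RPKM in the library labelled KO, and at 0 FPKM in all WT 2 libraries against 0.16 to 2.5 FPKM in the sorted KO set. It therefore gave no check of the KO labels. All 12 T cell markers, Cd3d, Cd3e, Cd8a and Cd8b1 among them, were above 4 in all 15 libraries. Summed over the list they ranged from 2453 to 5358 FPKM for B7S1R_SP, from 7009 to 9349.67 FPKM for TIM-3_SP and from 3804 to 8487 FPKM for DN. Summed over 15 markers, myeloid genes reached 329 to 5438 FPKM in B7S1R_SP, with Lyz2 at 2440 FPKM in B7S1R_SP KO, against 136 to 265 FPKM in the other populations. The NK cell markers Klrb1c, Klra8 and Klra4 were each listed at 0 to 0.89 FPKM in B7S1R_SP. Tyrobp, on both the NK and the myeloid list, went the other way. It had 61.1, 39.2 and 696 FPKM in B7S1R_SP of WT 1, WT 2 and KO, against 0 to 30.7 FPKM in the other populations. The haemoglobin genes Hba-a1, Hba-a2, Hbb-bs and Hbb-bt made up 1.13%, 9.71% and 7.84% of all FPKM in the B7S1R_SP, TIM-3_SP and DN libraries of WT 2, and at most 0.0136% in the KO set. In a bulk sort, fewer cells of a type and less RNA per cell cannot be told apart.

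B2m, the common light chain, was the most abundant member in every library. In WT 1 the B7S1R_SP library had 7986 FPKM, TIM-3_SP 10924.5 FPKM and DN 14789 FPKM. In WT 2 the same populations had 12899, 24403 and 14343 FPKM, and in the KO set 16544, 28998 and 18738 FPKM. B7S1R_SP was the lowest population in all 3 sets, and TIM-3_SP the highest in WT 2 and KO but not in WT 1. B2m ranked between 2 and 6 among all genes of a sorted library and spanned 3.63-fold across the 9 libraries.

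H2-K1, a classical heavy chain, had 2460, 2857 and 2592 FPKM in B7S1R_SP, TIM-3_SP and DN of WT 1. It had 709, 1429.98 and 1808 FPKM in WT 2, and 583, 862 and 637 FPKM in the KO set. The KO value was below the WT 2 value in each population. H2-D1, the other classical heavy chain, had 3169, 3448 and 2394 FPKM in WT 1, then 831, 1059.98 and 2001 FPKM in WT 2. Its KO values, 578, 598 and 536 FPKM, lay within 1.12-fold of each other. For every 100 units of B2m there were 17.5 to 30.8 of H2-K1 in WT 1, 5.50 to 12.6 in WT 2 and 2.97 to 3.52 in KO, a ratio taken within each library.

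H2-Q6 and H2-Q7 encode heavy chains of the Qa-2 family. H2-Q6 had 132, 133 and 69.8 FPKM in B7S1R_SP, TIM-3_SP and DN of WT 1, and 10.7, 25.8 and 75.5 FPKM in WT 2. In the KO set it had 1.81, 3.23 and 1.24 FPKM. H2-Q6 spanned the widest range of the 10 members over the 9 sorted libraries. H2-Q7 had 355, 530.0 and 565 FPKM in WT 1, 88.2, 346 and 304 FPKM in WT 2, and 74.9, 229 and 116 FPKM in KO, so B7S1R_SP was its lowest population in every set. H2-Q7 took 70.9% to 74.2% of the FPKM summed over H2-Q6, H2-Q7, H2-Q8 and H2-Q9 in KO, while H2-Q6 took 0.773% to 1.71% there and 5.25% to 13.0% in the wild-type sets.

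H2-T23 encodes the heavy chain of Qa-1, which presents leader peptides of other class I chains to NKG2 receptors. It had 835, 938 and 884 FPKM in B7S1R_SP, TIM-3_SP and DN of WT 1, 1199.96, 975 and 884 FPKM in WT 2, and 1371, 737 and 1123 FPKM in KO. These 9 values stayed within 1.86-fold of each other, the narrowest range among the members, and the sets overlapped.

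The transporter genes Tap1 and Tap2 were high in only 2 of the 9 sorted libraries. Tap1 stood at 140 FPKM in B7S1R_SP and 81.7 FPKM in TIM-3_SP of WT 1, and between 8.42 and 19.0 FPKM in the other 7 sorted libraries. Tap2 followed it, at 121 and 77.5 FPKM in those 2 libraries and 6.49 to 26.8 FPKM elsewhere. The neighbour Psmb9 did not share this pattern: in WT 1 it was 443, 490 and 578 FPKM in B7S1R_SP, TIM-3_SP and DN, highest where Tap1 was lowest.

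Tapbp had 254, 255 and 179 FPKM in WT 1, 26.7, 54.4 and 118 FPKM in WT 2, and 23.4, 24.3 and 21.96 FPKM in KO. The KO values were within 1.11-fold of each other. Nlrc5, the transactivator, had 40.5, 23.4 and 26.8 FPKM in WT 1, 3.22, 6.46 and 17.9 FPKM in WT 2 and 3.0, 8.69 and 4.52 FPKM in KO. Its KO values overlapped those of WT 2.

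**Figure D1:**
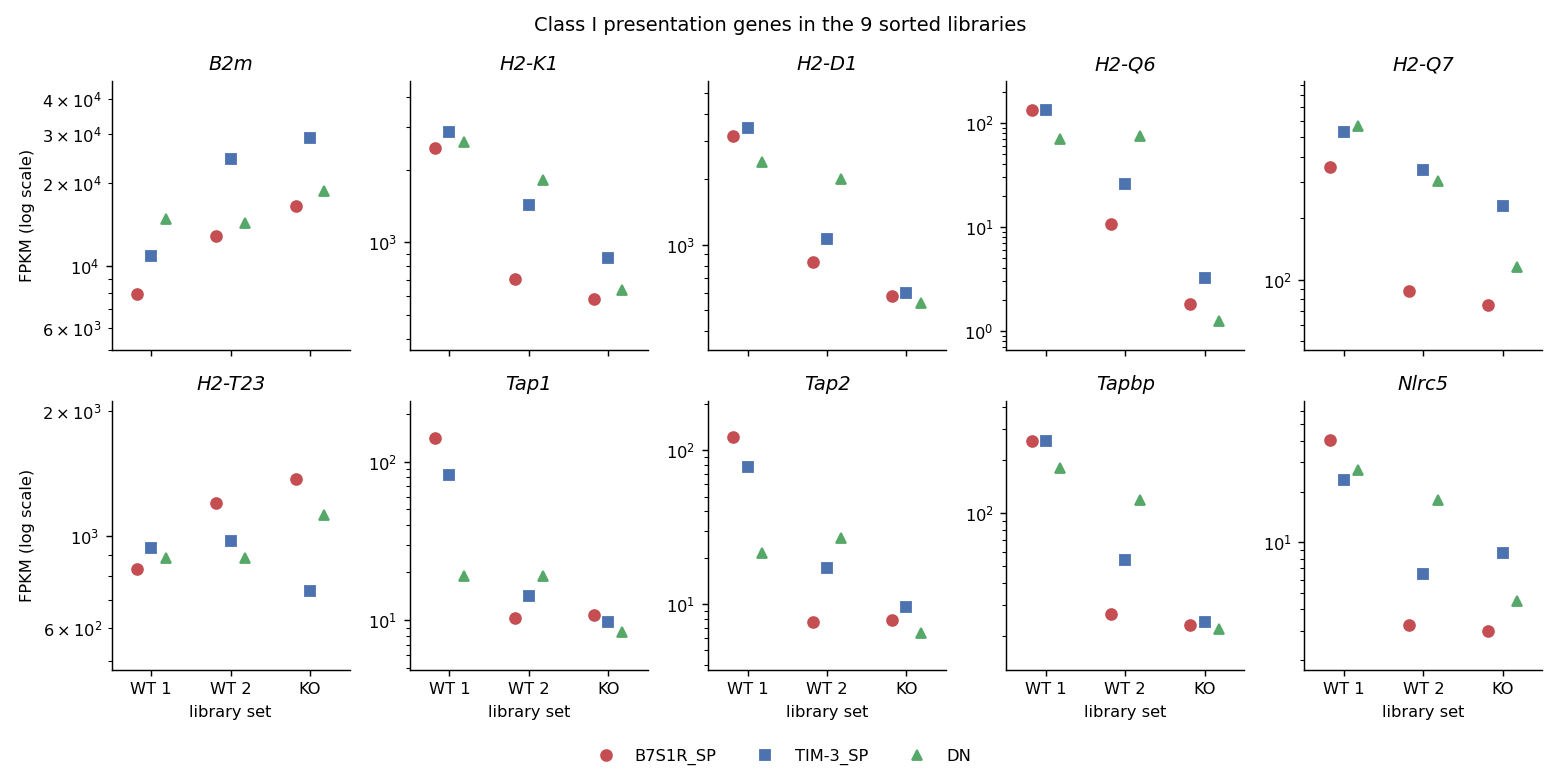
FPKM of the 10 members on a log axis, 1 panel a gene, in the 9 sorted libraries; each point is 1 library, set by library set on the x axis and by population in colour and shape, with no error bars because each group has 1 library per set. H2-Q6 is at 1.24 to 3.23 FPKM in the KO set, while H2-T23 stays between 737 and 1371 FPKM throughout.

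The members did not move as a block. Each gene's log2(FPKM + 1) was set against the mean of its library set, and correlated over the 9 libraries with the mean of the other members. These libraries share their depth, amplification and cell makeup, so the values are descriptions. Pearson's r was 0.96 for H2-Q6, 0.92 for Tapbp, 0.88 for H2-D1, 0.87 for H2-K1, 0.81 for Nlrc5, 0.78 for Tap2, 0.57 for H2-Q7 and 0.48 for Tap1. It was 0.01 for B2m and -0.67 for H2-T23. H2-D1, H2-Q6 and Tapbp formed the 3 closest pairs, at r = 0.97 for H2-D1 with Tapbp and 0.96 for H2-Q6 with either. Tap1 with Tap2 came next (r = 0.94). The light chain B2m was closest to the heavy chain H2-Q7 (r = 0.78), followed by the classical H2-K1 (r = 0.48). Its r was -0.18 with the classical H2-D1 and -0.52 with H2-T23.

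The non-member genes most like the mean of the 10, among 4434 genes at a mean of 10 FPKM or more, were Ptk2b, H13, Gatad2a, Junb, Dock2, Cd6, Unc119b and Jak1, with r from 0.97 to 0.99 over 9 libraries. The median r of the 4434 genes was 0.05. The balance of short and long transcripts also differed between libraries. The median log2(FPKM + 1) of the shortest transcripts, 1 of 4 equal groups by length, exceeded that of the longest group by 2.09 and 2.08 in B7S1R_SP and TIM-3_SP of WT 1, the 2 libraries with high Tap1 and Tap2. The excess was 2.90 to 3.48 in the other 7 libraries. Within the KO set it was 2.95 in B7S1R_SP, 3.26 in TIM-3_SP and 3.19 in DN. Within WT 2 it was 3.26, 3.48 and 2.97 in the same order, and in DN of WT 1 it was 2.90. The members' median difference of TIM-3_SP from DN was 0.32, -0.50 and 0.46 in WT 1, WT 2 and KO. That of B7S1R_SP from DN was 0.45, -1.52 and 0.10. The part of this excess in the members' levels was not tested.

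**Figure D2:**
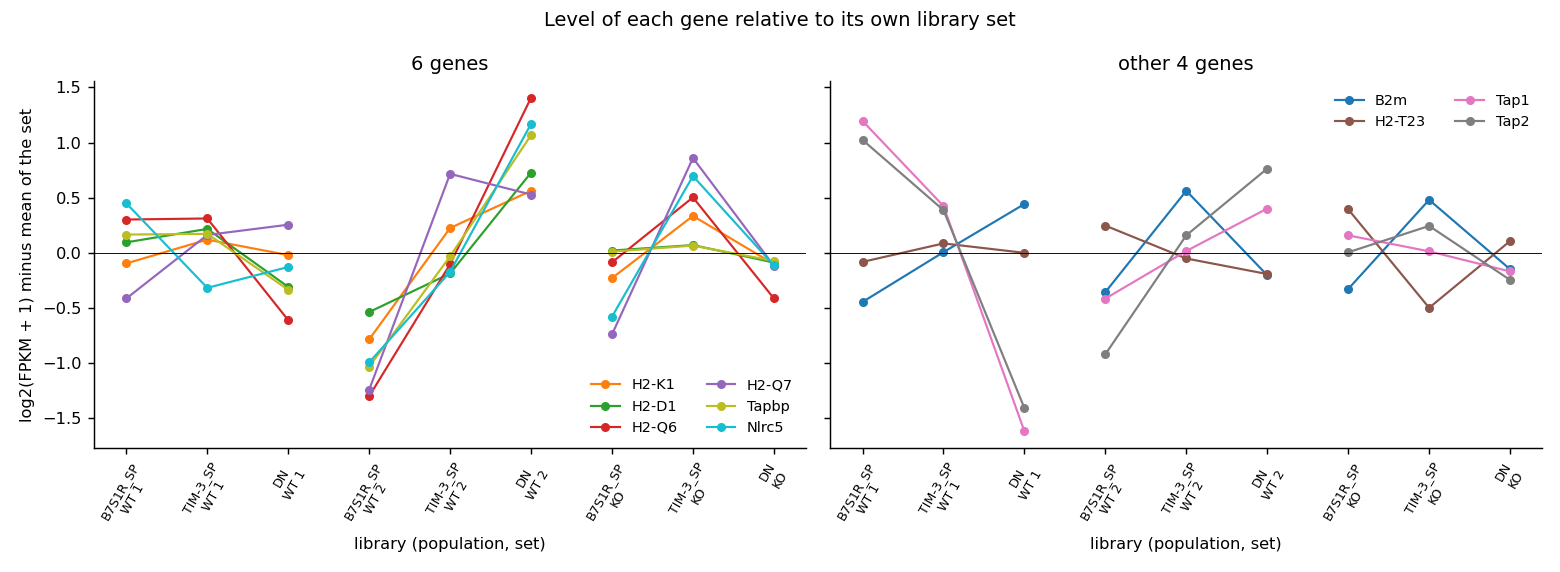
Log2(FPKM + 1) of each member minus the mean of its own library set, for the 9 sorted libraries ordered by set and population; points are single libraries and lines join the 3 libraries of a set. The 6 genes on the left are lowest in B7S1R_SP within WT 2, while Tap1 and Tap2 on the right are highest in B7S1R_SP and lowest in DN within WT 1.

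The first question of the sorted design was how the populations differ. No member passed the test in any population comparison, with limma on log2(FPKM + 1), the library set as a block and Benjamini-Hochberg adjustment over 10178 genes at a threshold of 0.05. The 3 comparisons share libraries. Between TIM-3_SP and DN, 6 genes of all tested passed (0.059%) and 0 of 10 members did, with 0 members at an unadjusted p under 0.05. Between B7S1R_SP and TIM-3_SP, 42 genes passed (0.413%; 25 higher and 17 lower, but 42 and 63 with each library centred on its median) and 0 members, with 1 member, H2-Q7, at an unadjusted p under 0.05. Between B7S1R_SP and DN, 0 genes passed (0%), though 678 genes, and 0 members, had an unadjusted p under 0.05.

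H2-Q7 stood furthest from 0 among the members in B7S1R_SP against TIM-3_SP. It was lower in B7S1R_SP in all 3 sets, by log2 differences of -0.58, -1.96 and -1.60 in WT 1, WT 2 and KO, with a fitted difference of -1.38 ± 0.46 (SE) and adjusted p = 0.224 in limma. B2m differed by -0.45, -0.92 and -0.81 in the same sets, fitted at -0.73 ± 0.43 (limma adjusted p = 0.48), and H2-K1 by -0.60 ± 0.44 (limma adjusted p = 0.583). H2-T23 was higher in B7S1R_SP in 2 of 3 sets, at 0.34 ± 0.42 (limma adjusted p = 0.763). In this comparison 6 of 10 members, B2m, H2-K1, H2-D1, H2-Q6, H2-Q7 and Tapbp, were lower in all 3 sets, against 13.9% of all genes. The differences of H2-Q6 and Tapbp in WT 1 were -0.01 each.

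The median difference over the 10 members was -0.40 between B7S1R_SP and TIM-3_SP, against 0.18 over all genes tested, and became 0.11 without the WT 2 library of B7S1R_SP and -0.75 without its WT 1 library. With each library centred on its own median, which took the median of all genes to -0.03, the members' median was -0.61. T cell markers were lower, and myeloid markers higher, in the B7S1R_SP libraries (values above), and their part in these differences was not tested.

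In B7S1R_SP against DN, the members had a median of -0.45 (all genes 0.01), and 3 of 10, B2m, H2-K1 and H2-Q7, were lower in all 3 sets, against 14% of all genes. H2-Q7 was fitted at -1.02 ± 0.46 (limma adjusted p = 0.753). The sets disagreed for most members. The medians were 0.45, -1.52 and 0.10 in WT 1, WT 2 and KO, and the fitted median was 0.05 without B7S1R_SP of WT 2 and 0.11 without DN of WT 2. Tap1 differed by 2.82, -0.82 and 0.33 in WT 1, WT 2 and KO, fitted at 0.78 ± 0.65 (limma adjusted p = 0.829).

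In TIM-3_SP against DN the median was 0.09 (all genes -0.14), with 0.32, -0.50 and 0.46 in the 3 sets. It was -0.26 without DN of WT 1, 0.45 without DN of WT 2 and -0.07 without DN of KO. Tap1 and Tap2 had the widest fitted differences, 0.61 ± 0.65 and 0.56 ± 0.69 (limma adjusted p = 0.828 and 0.856). Tap1 differed by 2.04, -0.39 and 0.18, and Tap2 by 1.80, -0.61 and 0.49, in WT 1, WT 2 and KO, so WT 1 was the highest for both. None of the 10 members kept a direction in all 3 sets.

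The genotype comparison set the KO set against WT 2, whose files list the same genes. Each genotype thus had 1 library set, with the 3 populations in the place of replicates. The SE and p-values of this comparison therefore do not measure spread between mice. One gene of all tested passed (0.00983%) and 0 of 10 members did, with 2 members, H2-Q6 and H2-D1, at an unadjusted p under 0.05 in limma. H2-Q6 lay furthest from 0. Its differences were -2.06, -2.67 and -5.09 in B7S1R_SP, TIM-3_SP and DN, fitted at -3.27 ± 0.68 (SE), with limma adjusted p = 0.557. The gap between the WT 2 and KO levels of H2-Q6 was widest in DN, from 75.5 to 1.24 FPKM.

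Tapbp was fitted at -1.23 ± 0.55 (limma adjusted p = 0.762), H2-D1 at -1.08 ± 0.47 (0.755), H2-K1 at -0.84 ± 0.44 (0.766) and H2-Q7 at -0.74 ± 0.46 (0.801), with the limma adjusted p in brackets. Those 4 and H2-Q6, the 5 members lower in all 3 populations, compare with 23.4% of all genes. B2m was the 1 member higher in all 3 (13.8% of all genes), by 0.36, 0.25 and 0.39 and fitted at 0.33 ± 0.43 (limma adjusted p = 0.904). The B2m difference was 0 after quantile normalisation. H2-T23 was fitted at 0.04 ± 0.42 (limma adjusted p = 0.992), and its sign turned under 4 of 17 alternatives.

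The median over the members was -0.79, against -0.15 over all genes and -0.37 over 10 housekeeping genes, of which 0 passed. With libraries centred on their medians the members' median was -0.51, with all genes at 0.12. It was furthest from 0 in DN, at -1.64, compared with -0.66 in TIM-3_SP and -0.13 in B7S1R_SP, while all genes had -0.38, -0.04 and 0.00. Without DN of WT 2 it was -0.29. A test of whether the genotype difference varied by population called 0 genes (0%) and 0 members, with 96 genes and 0 members at an unadjusted p under 0.05 in limma, so the difference between populations was not shown.

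The haemoglobin genes, high in WT 2 and at or near 0 in KO, move with this contrast, and their part in it was not tested. Read across tables, and so as a description only, H2-K1, H2-D1, H2-Q6, H2-Q7 and Tapbp in WT 1 were above their KO level in every population. So were Tap1, Tap2 and Nlrc5. WT 1 and WT 2 also differed. In B7S1R_SP, WT 2 minus WT 1 was -1.79 for H2-K1, -1.93 for H2-D1 and -3.51 for H2-Q6 (median of all genes -0.68). KO minus WT 2 was narrower there, at -0.28, -0.52 and -2.06. In DN it was the wider, at -1.5, -1.9 and -5.09, against -0.52, -0.26 and 0.11 for WT 2 minus WT 1. H2-Q7 and Tapbp showed the same order of widths in both populations. Centring within 20 bins of transcript length, chosen after seeing the data, left the members' median for KO against WT 2 at -0.41.

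**Figure D3:**
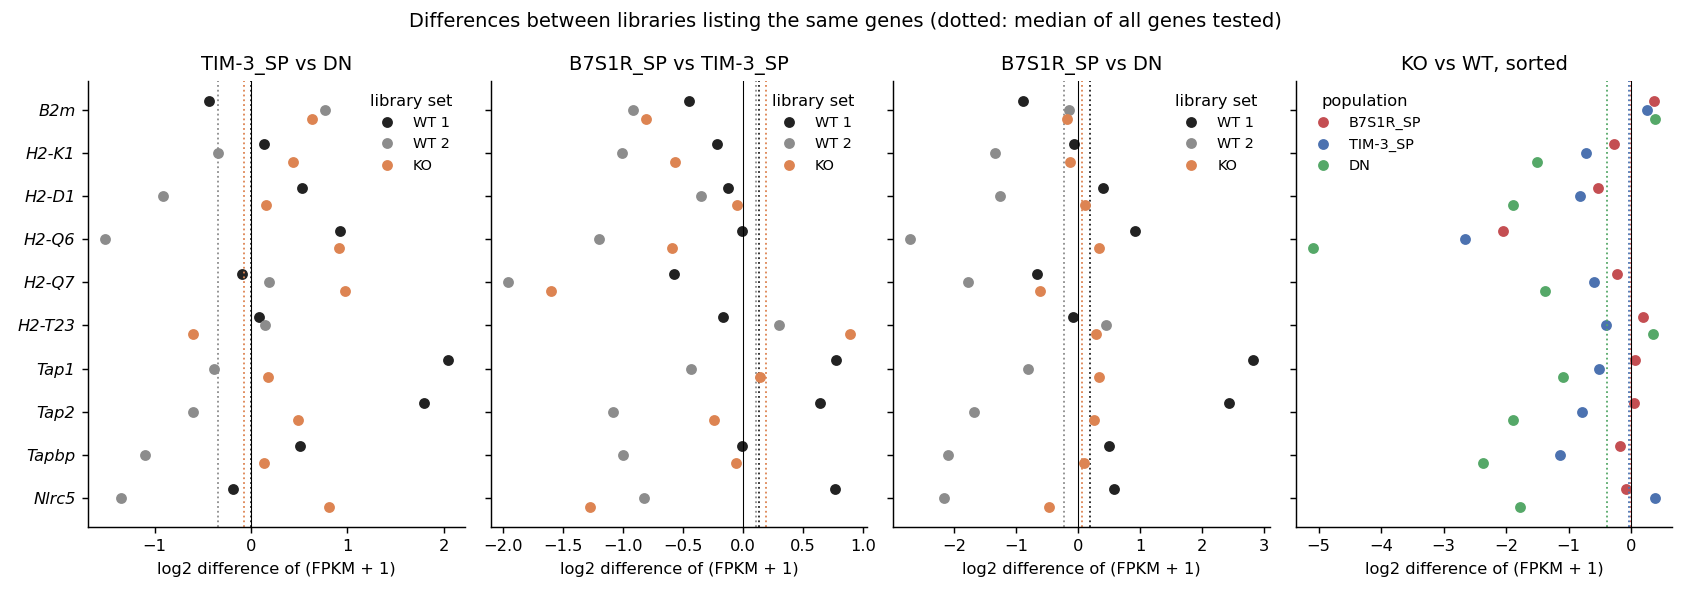
Log2 differences of (FPKM + 1) for each member in 4 comparisons, 1 point for each pair of libraries that list the same genes, coloured by library set or, for KO against WT 2, by population; dotted lines are the medians of all genes tested in the same pair. In the right panel the DN points reach -5.09 for H2-Q6, while B2m lies between 0.25 and 0.39.

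The rest of the pathway gave few calls in the sorted design. Of 10 peptide-loading and trimming genes, 6 immunoproteasome and activator genes and 13 tested class I and class I-like genes, 0 passed in any of the 4 comparisons in limma. Of 22 tested transactivators and interferon-signalling genes, Ifng, the cytokine gene whose product induces class I, fell in B7S1R_SP against TIM-3_SP. Ifng stood at 67.6, 40.0 and 17.1 FPKM in B7S1R_SP and 912, 1692 and 1077 FPKM in TIM-3_SP of WT 1, WT 2 and KO, a difference of -5.00 ± 0.52 (limma adjusted p = 0.00948). The call held in only 10 of 17 alternatives, with limma adjusted p from 0.00188 to 0.375 over them.

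H2-Q1 and H2-Q2, relatives of H2-Q7, were highest in 2 of the 3 KO libraries. H2-Q1 stood at 99.5 FPKM in B7S1R_SP and 76.9 FPKM in DN of KO, 18.8 FPKM in B7S1R_SP of WT 2, and 0.44 to 7.99 FPKM in the other 6 libraries. It was fitted 3.03 ± 0.63 higher in KO (limma adjusted p = 0.557). H2-Q2 reached 67.8 and 68.3 FPKM in the same 2 KO libraries. In those libraries H2-Q6 was at 1.81 and 1.24 FPKM. Other H2-Q relatives did not rise in KO. H2-Q8 was fitted at -2.81, H2-Q4 at -2.22 and H2-Q9 at -1.29 in KO against WT 2 (limma adjusted p = 0.755 each). H2-Q10 was fitted at -0.02 (limma adjusted p = 0.998). Class II genes differed by a median of 2.45 between B7S1R_SP and TIM-3_SP with 0 of 8 past the test. H2-Aa had 325, 17.6 and 871 FPKM in B7S1R_SP and 5.01, 2.60 and 6.68 FPKM in TIM-3_SP, and the 3 B7S1R_SP libraries also held the 3 highest myeloid sums. The part of myeloid cells in these values was not tested.

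In the bulk pair each group had 1 library, so neither these ratios nor those of the antibody libraries have a replicate check. The bulk libraries differed little in the members. B2m was 20415 RPKM in wild type and 21860 RPKM in KO, H2-K1 2870 and 2275 RPKM, H2-D1 2131 and 1795 RPKM, and H2-T23 430.0 and 396 RPKM. H2-Q7 was 43.8 and 42.4 RPKM, Nlrc5 33.2 and 35.5 RPKM, and Tap2 9.59 and 11.3 RPKM. The classical heavy chains were thus lower in KO by log2(RPKM + 1) differences of -0.33 and -0.25, and B2m was 0.10 higher.

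Of the 7 members at 5 RPKM or more in either library, 0 were past 2-fold, against 22.9% of 6075 genes. The median over the 10 members was -0.06 (all genes -0.02). Tapbp was listed at 1.87 and 1.72 RPKM, Tap1 at 0.0306 and 0.113 RPKM and H2-Q6 at 0.184 and 0.001 RPKM. In this table the chaperone gene Canx, which cells in general use, was also listed at 0.13 and 0.08 RPKM. Listings near 0 there may therefore be failed estimates and are given only as listed.

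The 4 antibody libraries held higher levels of H2-Q6, Tap1, Tap2 and Tapbp than most sorted libraries, read across tables. H2-D1 was 2764, 2865, 2484 and 4062 FPKM in Control, anti_B7S1, anti_PD1 and combo, and H2-K1 was 2125, 3083, 3183 and 3162 FPKM. H2-K1 was thus lowest in Control, and H2-D1 highest in combo. B2m was 6076, 8454, 9548 and 6447 FPKM, with both single-antibody libraries above Control and combo.

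H2-Q6 and H2-Q7 varied little among the 4 libraries. H2-Q6 was 336, 346, 316 and 352 FPKM, and H2-Q7 781, 687, 648 and 647 FPKM in the same order. H2-T23 was 1099 FPKM in Control and 534, 588 and 411 FPKM in the 3 treated libraries, so Control stood well above the others. Tap1 was 100.4, 93.5, 143 and 208 FPKM and Tap2 146, 130.1, 102 and 121 FPKM, so that Tap1 was above Tap2 in the libraries that had PD-1 antibody and below it in the others. Tapbp was 261, 122, 341 and 296 FPKM, lowest in anti_B7S1. Nlrc5 was listed at 0.02 FPKM in Control and was 44.0, 22.7 and 39.1 FPKM in the others.

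A gene was counted as past 2-fold on the log2(FPKM + 1) scale with 5 FPKM or more in the higher library, and such genes were common. They made up 67.6% for anti_PD1 against Control, 64.1% for combo against anti_B7S1, 66.9% for anti_B7S1 against Control, 56.3% for combo against anti_PD1 and 68% for combo against Control. The members were past 2-fold in 1, 2, 3, 0 and 3 of 10 cases in the same order, below the share of all genes in each pair. Nlrc5 was past 2-fold in each comparison with Control. The immunoproteasome gene Psmb10 and the proteasome activator gene Psme3 were also listed at 0 FPKM in Control, so no fold is given for Nlrc5 there. In anti_B7S1, anti_PD1 and combo, Psmb10 was 63.1, 84.9 and 30.4 FPKM. Psme3 was low in these as well, at 11.7, 5.3 and 0.02 FPKM.

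Each antibody could be read in pairs of libraries with none in common. For the PD-1 antibody (anti_PD1 against Control and combo against anti_B7S1), 0 members were past 2-fold in the same direction in both, against 22.9% of 6255 genes. Tap1 was higher in both, by log2 differences of 0.50 and 1.15, as was Tapbp, by 0.39 and 1.27, each past 2-fold in the second pair only. For the B7S1 antibody (anti_B7S1 against Control and combo against anti_PD1), 0 members passed in both, against 16.8% of 5963 genes. H2-T23 was lower in both, at -1.04 and -0.52, and Nlrc5 was higher in both. In combo against Control, H2-T23 differed by -1.42 and Tap1 by 1.05, while the median over all 10 members was 0.13 (all genes 0.27). Over 11 myeloid markers the sums were 0.63 to 247 FPKM in the 4 libraries. The highest sum, in Control, was almost all Cd68 at 246.7 FPKM, the 1 marker of 11 at 1 FPKM or more there. The part of these markers in the members' values was not tested.

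**Figure D4:**
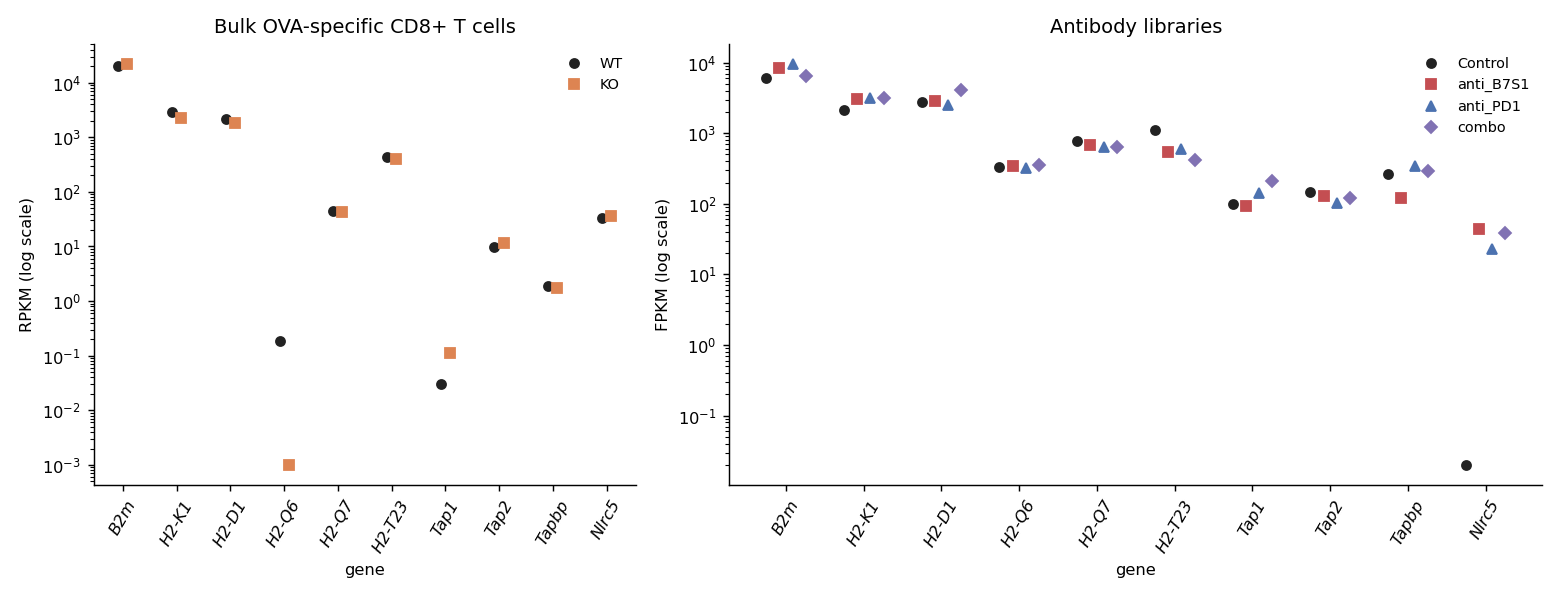
Levels of the 10 members on log axes, RPKM in the 2 bulk libraries on the left and FPKM in the 4 antibody libraries on the right; each point is 1 library, and there are no error bars because each group has 1 library. The bulk points nearly coincide except at the lowest levels, and Nlrc5 in Control, at 0.02 FPKM, lies apart.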

How the data were processed

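RNA was profiled in 15 mouse libraries, 11 of sorted CD8+ T cells and 4 of tumour-infiltrating lymphocytes with no gate given. The authors deposited RPKM for the bulk pair and FPKM for the other 13 libraries, per the file headers. HISAT2, Bowtie2, RSEM and the build mm10 are named in the submitters' processing notes, without versions or roles. Depth, filters and annotation are not given in the sources used here, so no intervals from counts could be formed. Genes listed in all 9 sorted libraries (14020) with a mean of at least 1 FPKM (10178) were tested in R 4.3.3 by limma 3.58.1 on log2(FPKM + 1), with population and library set as terms, two-sided, Benjamini-Hochberg over all genes, threshold 0.05. The fold of a low gene is understated on this scale. The genotype term is KO minus WT 2. The numbers come from the titles and were taken to pair libraries. The WT 2 to WT 1 differences of 10178 genes had r = 0.41, 0.27 and 0.20 between pairs of populations. WT 1 and WT 2 list different genes. Any shift between them shared by the populations would also give a positive r, so these values do not show pairing. Unreplicated designs were described by ratios of value + 1. Promoters were RefSeq (GRCm38.p6), and transcripts GENCODE M21. The fits were tested on simulated data. All 10 members are named. Of pathway lists, genes past the threshold and otherwise up to 3 with the widest difference per comparison could be named. Markers, Hba-a2, Canx, Psmb9, Psmb10, Psme3, H2-Q4, H2-Q8, H2-Q9 and H2-Q10 were chosen after their values were seen. The members and lists were chosen with earlier results of these data known.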

Additional observations from a re-analysis of the deposited data

How the results depend on the processing

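No member passed in any of 720 fits (10 members, 4 sorted comparisons, 18 settings), and the sign differed from the reported one in 50 of 680 alternatives. Counts of genes called depended on the setting. For TIM-3_SP against DN, 6 genes became 2 with absent genes as 0, 0 without the filter, 1 with a pseudocount of 0.1 and 3 after quantile normalisation, and 0 to 3 with 1 library left out. For B7S1R_SP against TIM-3_SP, 42 became 24, 7 and 2 in the first 3 of these settings and 105 with libraries centred (42 higher, 63 lower, against 25 and 17), and 1 to 36 with 1 library left out; quantile normalisation gave 59 (17 higher, 42 lower) and centring by transcript length, chosen after seeing the data, 42 (18 higher, 24 lower). For B7S1R_SP against DN, 0 became 1 with a pseudocount of 0.1 and 0 to 1 with 1 library left out. For KO against WT 2, 1 became 6, 0 and 0 in those first 3 settings, and 0 to 2 with 1 library left out.

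With no replicate block, the population comparisons were fitted on the 6 wild-type libraries only. The counts were 0 in TIM-3_SP against DN and 0 in B7S1R_SP against TIM-3_SP. In KO against all wild-type libraries the count was 0. A replicate block over the same 6 wild-type libraries gave 2 and 5 in these population comparisons. In KO against WT 2, the block over the 6 libraries of 1 gene table gave 0. In KO against WT, the fit with no replicate block also adds WT 1 to the wild-type side. The members' median was then -1.47, with 6 of 10 members at an unadjusted p under 0.05, against -0.79 with the block, also over the 6 libraries of 1 gene table.

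With 1 library left out, medians ranged from -0.26 to 0.45 (TIM-3_SP against DN), -0.75 to 0.11 (B7S1R_SP against TIM-3_SP), -0.62 to 0.11 (B7S1R_SP against DN) and -1.11 to -0.29 (KO against WT 2). Tap1 ranged from -0.25 to 1.26 and Tap2 from -0.27 to 1.36 in TIM-3_SP against DN, and Tap1 from -0.092 to 1.42 in B7S1R_SP against DN; the sign turned without DN of WT 1. H2-T23 in KO against WT 2 was -0.27 after quantile normalisation and -0.08, -0.11 and -0.06 without DN of WT 2, B7S1R_SP of KO or DN of KO, and up to 0.30 without TIM-3_SP of KO. Centring took anti_B7S1 against Control from 3 members past 2-fold to 1. The cause was not tested. Unknown depth limits the low values, H2-Q6 in KO above all.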
